A study of Mus musculus with 10 samples.

Results

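The Slc25 family encodes carriers that lie, with few exceptions, in the mitochondrial inner membrane. The members described here are the 39 genes, of 13492 in the deposited table, whose symbol is Slc25a followed by a number. The labels give 10 libraries of polyA RNA from the tibialis anterior, a fast muscle at the front of the shin, of mice aged 6 months on a C57BL/6 background after 3 h without food. Of these libraries, 5 are labelled Lrtm1 KO (replicates 1 to 5) and 5 are labelled Lrtm1 WT (replicates 1, 3, 4, 5 and 6), which the series' design text calls Lrtm1 flox controls. That text gives 4 per group, and the labels 5. The mice came from 3 litters, and each litter held both genotypes. The Cre line, the cells in which Lrtm1 was deleted and the deleted exons are not stated in the labels or the design text. Nor do they say whether the libraries are from separate animals, so the p-values reflect only how these libraries vary, which may be technical.

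The inner mitochondrial membrane is closed to most metabolites, and Slc25 carriers move them across it, mostly by exchanging a molecule on one side for a different one on the other. In muscle they export newly made ATP in exchange for ADP, bring in phosphate for ATP synthesis, pass reducing equivalents inward through the malate-aspartate shuttle, admit fatty acids as acylcarnitines, and supply iron, nucleotides and cofactors to the matrix. The carriers are built by nuclear genes and are imported through the TIM22 complex of the inner membrane.

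Values are log2 CPM (the count of a gene relative to its library's total, on a log2 scale), which the authors had adjusted before deposit. The depth behind them is unknown. In the deposited values litter and 3 further terms had been removed with genotype kept, which leaves 3 residual degrees of freedom. Each difference was tested with limma on all 12223 genes that reached a mean log2 CPM of 0, with these removed terms counted. With all libraries kept, a fit that leaves the removed terms uncounted gives the same differences. But it takes 6 degrees of freedom where 3 remain, so its standard errors are too small. Differences with a library left out depend on the fit, and are given with the removed terms counted unless stated. Because calls differ between the fits, both adjusted p-values are given, and the threshold was 0.05 in each. Muscle fibre markers summed to between 113103 and 130292 CPM in every library, and all 8 of those listed were present. The targeted gene Lrtm1 went against the labels, being 1.35-fold higher where knockout is labelled (log2 difference 0.44, SE 0.07, limma adjusted p = 0.0344). All directions are therefore between libraries as labelled, and which part of Lrtm1 was deleted is unknown, so its gene-level value may check nothing.

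The promoter windows below are shown because they belong to carriers with large positive log2 differences and because each holds a motif of a factor family known for metabolic or activity-dependent genes. RefSeq windows (GRCm38.p6) were matched for 30 of the 39 carriers, 39 windows in all, and the 250 bases before each start were searched on both strands. The letters searched were TGACGTCA (CRE, the cyclic AMP response element), AAAGGTCA (NBRE, bound by NR4A receptors), CACGTG (E-box) and the NRF1 motif. No motif overlaps another in the windows shown, and capitals mark the match. The Slc25a33 window covers chr4:149774268-149774517 on the minus strand and ends in an E-box, 8 bases before the RefSeq start. For Slc25a25 the window shown is 1 of 3, at chr2:32424067-32424316 on the minus strand, with a CRE 150 bases before the start. The Slc25a34 window, at chr4:141623835-141624084 on the minus strand, holds the reverse complement of the NBRE 119 bases before the start, and it was chosen after the values had been seen.
Slc25a33: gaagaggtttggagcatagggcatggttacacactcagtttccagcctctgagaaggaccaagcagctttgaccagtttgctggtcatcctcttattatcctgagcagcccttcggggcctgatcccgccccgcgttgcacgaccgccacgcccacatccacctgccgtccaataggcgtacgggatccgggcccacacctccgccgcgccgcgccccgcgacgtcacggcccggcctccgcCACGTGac
Slc25a25: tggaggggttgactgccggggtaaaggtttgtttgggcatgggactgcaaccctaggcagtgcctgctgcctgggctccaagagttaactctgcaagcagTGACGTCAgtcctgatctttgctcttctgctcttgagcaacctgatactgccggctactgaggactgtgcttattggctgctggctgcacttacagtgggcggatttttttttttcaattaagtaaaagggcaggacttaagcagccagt
Slc25a34: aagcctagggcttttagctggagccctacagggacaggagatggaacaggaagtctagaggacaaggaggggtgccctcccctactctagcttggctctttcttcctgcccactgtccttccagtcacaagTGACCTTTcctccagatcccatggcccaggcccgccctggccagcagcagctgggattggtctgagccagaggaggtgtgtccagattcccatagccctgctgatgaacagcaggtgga
Of all 32851 windows of this length, 6.02% hold the E-box, 1.55% the CRE, 1.34% the NBRE and 3.74% the NRF1 motif. Among carriers the E-box letters lie before Slc25a1, Slc25a13, Slc25a14, Slc25a15, Slc25a33 and Slc25a36, the CRE before Slc25a25 and Slc25a36, the NBRE before Slc25a34 and the NRF1 letters before Slc25a3. Of the carriers' 39 windows, 7 hold the E-box, 2 the CRE, 1 the NBRE and 1 the NRF1 motif. The windows of Slc25a20 and Slc25a22, described below for their lower values, hold none of the letters searched. But Slc25a1, with a log2 difference of -0.28, has the E-box. No match was found for Slc25a53 (0.32), Slc25a17 (-0.15) or Slc25a28 (-0.14), which may lack a window. Because the windows shown were picked by value and by motif, they cannot link the 2. A match is a description of these bases only.

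Carrier transcripts were dominated by a single gene. Levels of different genes were compared as CPM per kilobase of the longest annotated transcript (GENCODE M21, GRCm38), averaged over the 10 libraries. Slc25a4, the muscle and heart ADP/ATP carrier that exports ATP from the matrix, stood at 1568 ± 43.5 CPM per kb (SD, n = 10), rank 33 among all genes with a length, and made up 69.0% ± 0.50 (SD, n = 10) of the summed CPM per kb of the family. Slc25a3, the phosphate carrier, followed at 223 ± 6.15, then Slc25a11, the oxoglutarate/malate carrier, at 149 ± 6.14. Slc25a12, the aspartate/glutamate carrier, came next at 80.6 ± 3.10. These 4 carriers together took between 88.5% and 89.4% of the family's summed CPM per kb in each library, and the ranges of neighbours among them did not overlap. Below them Slc25a20 (26.8 ± 2.25) did not overlap Slc25a12, but its range over libraries met that of Slc25a5 (24.3 ± 1.03), the other ADP/ATP carrier present. Of the 38 neighbouring pairs in the whole order, 26 had ranges that overlapped, so most of the lower order is not resolved.

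The family spanned an 8076-fold range, with 13 carriers at 10 CPM per kb or more and 4 under 1. Near the bottom stood Slc25a53 at 0.417 CPM per kb and Slc25a13, the second aspartate/glutamate carrier, at 0.194. Slc25a13 missed the expression minimum, so 38 of the 39 members were tested. The carriers summed to 5489 ± 140 CPM (SD, n = 5) in the libraries labelled control and 5416 ± 74.8 CPM (SD, n = 5) in those labelled knockout, or 0.545% of all CPM over both groups, and the ranges overlapped (5362 to 5721 against 5304 to 5509). Lengths matter to the order: with the median coding transcript length in place of the longest, the share of Slc25a4 was 51.2%, and Slc25a22 moved from rank 24 to rank 9.

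**Figure D1:**
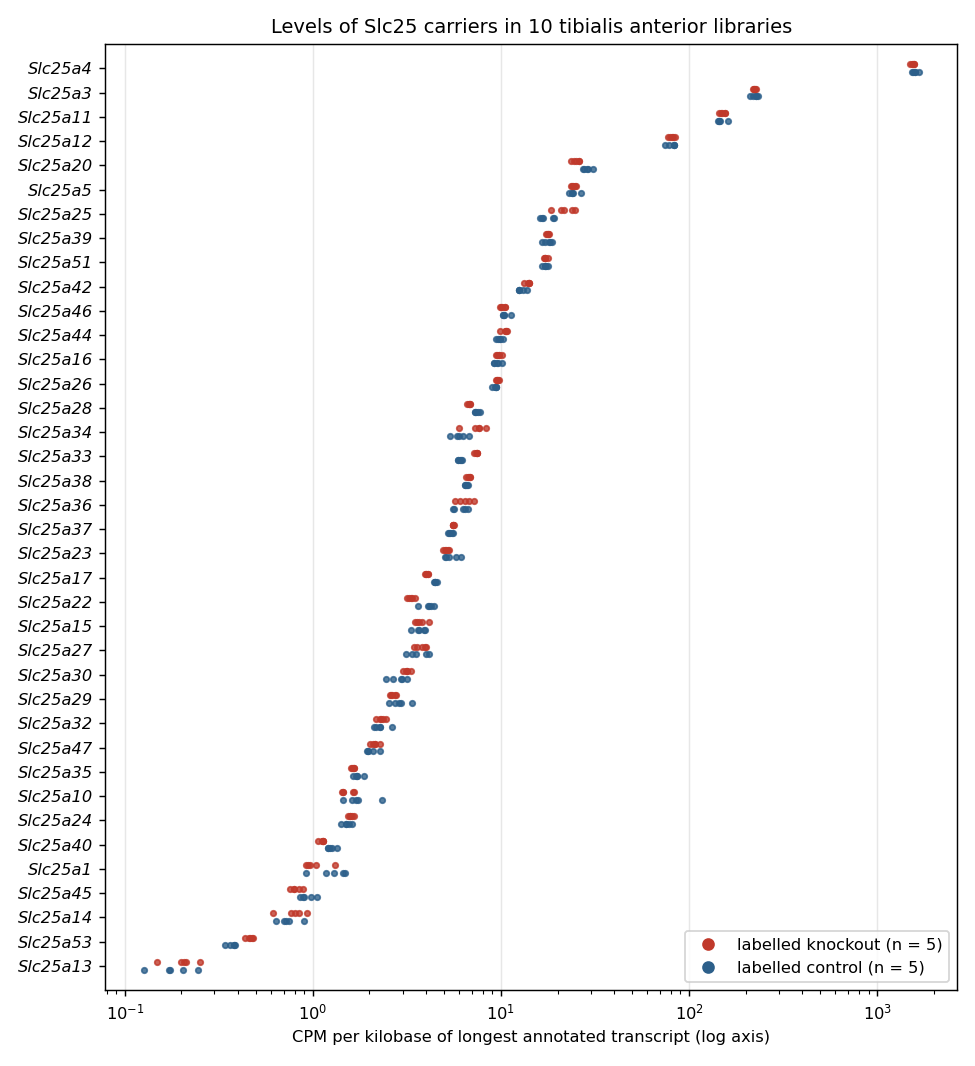
CPM per kilobase of the longest transcript on a log axis for 38 of the 39 carriers, ordered by their mean, with 1 point for each of the 10 libraries coloured by labelled group (n = 5 each). Slc25a4, with a mean of 1568 CPM per kb, stands apart from Slc25a3 at 223, and the order ends with Slc25a13 at 0.194.

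Between the labelled groups, none of the 38 carriers passed the threshold in the limma fit that counts the removed terms (smallest adjusted p = 0.208), where 0.335% of all genes tested passed, 0.27% higher and 0.0655% lower. At an unadjusted p under 0.05 the same fit had 5 carriers, or 13.2% of them, against 10.1% of all genes. With the removed terms not counted, 6 carriers passed, or 15.8%, against 8.62% of all genes. Of these, 2 were higher where knockout is labelled (all genes 5.15%) and 4 were lower (all genes 3.48%). The 2 were Slc25a33 and Slc25a53, and the 4 were Slc25a22, Slc25a20, Slc25a28 and Slc25a17. Libraries of the labelled groups did not overlap for 7 carriers, these 6 and Slc25a40. That is 18.4% of carriers against 16.2% of all genes. The libraries labelled knockout all lay above the controls for 2 of the 7 (all genes 8.56%) and all below for 5 (all genes 7.63%). The median log2 difference over the 38 was 0.01, against -0.0041 over all genes, and 15 lay below 0 (39.5%, against 51.4% of all genes). Log2 differences ran from -0.30 to 0.32, and their median size was 0.078, against 0.0785 for all genes. With the removed terms counted, the 95% interval lay within 0.30 on either side of 0 for 22 of the 38. Standard errors are lower bounds, so that count may be too high, and the share over all genes is not given.

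**Figure D2:**
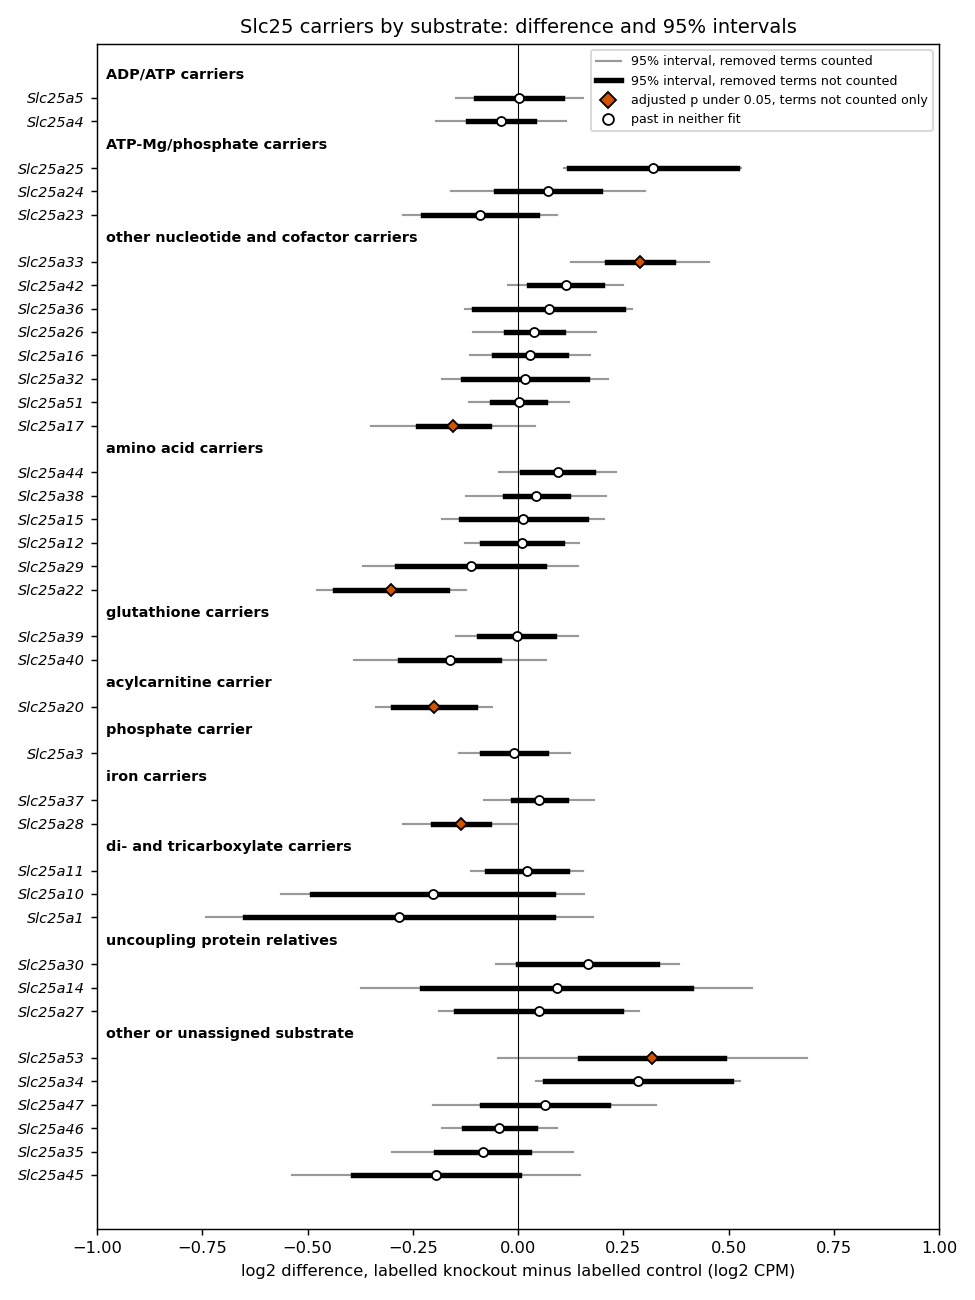
Log2 difference in CPM, libraries labelled knockout minus labelled control, for 37 of the 38 carriers tested, by substrate list, with 95% intervals from the limma fits with the removed terms counted (thin) and not counted (thick). Filled diamonds mark the 6 that passed with those terms not counted; the differences run from -0.30 to 0.32.

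ADP/ATP carriers had differences near 0. Log2 CPM is given for each library, always with control replicates 1, 3, 4, 5 and 6 first and then knockout replicates 1 to 5. Slc25a4 stood at 11.59, 11.58, 11.55, 11.65 and 11.53 in the libraries labelled control and at 11.54, 11.53, 11.57, 11.56 and 11.50 in those labelled knockout. Its groups overlapped, with a log2 difference of -0.04 (SE 0.07, 95% interval -0.20 to 0.11, limma adjusted p = 0.897). For Slc25a5, the more widely expressed ADP/ATP carrier, the values were 4.91, 4.89, 4.89, 5.05 and 4.83 against 4.94, 4.89, 4.96, 4.91 and 4.87, also overlapping, and the log2 difference was 0.0029 (SE 0.07, adjusted p = 0.994). That sign turned (-0.0014) with library medians centred. Slc25a5 has processed pseudogene copies, so its value may share reads with them. The share of Slc25a4 in the family's summed CPM per kb ran from 69.2% to 69.7% in the libraries labelled control and from 68.3% to 69.3% in those labelled knockout, and the ranges met. Partners of ATP export include the outer membrane channels Vdac1 to Vdac3 and the creatine kinases. Of these partners 0 of 7 passed in either fit (all genes 0.335% with the removed terms counted and 8.62% without). The closest was the adenylate kinase Ak1, with a log2 difference of 0.05 (limma adjusted p = 0.806 with the removed terms counted and 0.209 without).

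The calcium-regulated ATP-Mg/phosphate carriers set the size of the matrix adenine nucleotide pool. With all libraries in the fit, Slc25a25 had the largest positive log2 difference of the family. Its values were 5.95, 6.00, 6.18, 5.98 and 6.20 in the libraries labelled control and 6.51, 6.37, 6.32, 6.15 and 6.56 in those labelled knockout. Knockout replicate 4 lay within the range of the controls, and the other 4 libraries labelled knockout lay above it. The means were 6.06 ± 0.12 and 6.38 ± 0.16 log2 CPM (SD, n = 5 each), a 1.25-fold difference (log2 0.32, SE 0.10, 95% interval 0.11 to 0.53). It did not pass (limma adjusted p = 0.277 with the removed terms counted and 0.0559 without). With the removed terms counted, leaving out control replicate 1 brought the log2 difference to 0.13, below those of Slc25a53 (0.28) and Slc25a33 (0.24). Leaving out knockout replicate 5 brought that of Slc25a25 to 0.19. With the terms not counted, leaving out a library gave Slc25a25 0.25 to 0.40. Within litters 108, 110 and 112 the log2 difference was 0.49, 0.23 and 0.26. An exon of Naif1 overlaps Slc25a25 on the opposite strand, and the labels do not say whether counting used the strand, so reads of the 2 genes may not be told apart. Naif1 was far lower, at 1.82 and 1.90 log2 CPM, with a log2 difference of 0.08 (adjusted p = 0.88).

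The other two ATP-Mg/phosphate carriers had small differences. Slc25a23 had a log2 difference of -0.09 (adjusted p = 0.774) and Slc25a24 of 0.07 (adjusted p = 0.874). The gap between Slc25a25 and Slc25a23 in log2 CPM was 1.73 to 2.09 in the libraries labelled control and 2.09 to 2.48 in those labelled knockout, so the ranges just met.

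Carriers of other nucleotides and of cofactors numbered 9, and 8 of them had a log2 difference above 0 (median 0.03). Slc25a33 imports pyrimidine nucleotides for mitochondrial DNA and RNA synthesis. It stood at 3.48, 3.53, 3.48, 3.52 and 3.55 log2 CPM in the libraries labelled control and at 3.82, 3.81, 3.82, 3.76 and 3.79 in those labelled knockout. All 5 libraries labelled knockout were above all 5 controls. Each group was tight, but litter and 3 further terms had been removed from the values, so the SDs leave out that variation. The means of 3.51 ± 0.03 and 3.80 ± 0.03 (SD, n = 5 each) differed 1.22-fold (log2 0.29, SE 0.07, 95% interval 0.12 to 0.45). Its adjusted p was 0.208 with the removed terms counted and 0.00322 without, and over the 18 alternatives run it ranged from 9.06e-05 to 0.948. With the removed terms not counted it passed in 10 of 10 fits that each leave out a library. Its difference in litters 108, 110 and 112 was 0.34, 0.32 and 0.24.

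Slc25a36, the other pyrimidine nucleotide carrier, did not show such a pattern, with a log2 difference of 0.07 (SE 0.09, adjusted p = 0.839) and overlapping groups. The gap between Slc25a36 and Slc25a33 was 1.31 to 1.60 log2 units in the libraries labelled control and 1.11 to 1.47 in those labelled knockout, and the ranges overlapped. Whether the carriers differ from each other in their response was not tested.

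Slc25a17, a carrier of the peroxisomal membrane that moves coenzyme A, FAD and NAD, was the 1 member of this list below 0. Its values were 2.94, 2.93, 2.98, 2.95 and 2.95 log2 CPM in the libraries labelled control, all above the 2.81, 2.79, 2.78, 2.77 and 2.82 of those labelled knockout. The log2 difference was -0.15 (SE 0.09, 95% interval -0.35 to 0.04) and the adjusted p 0.606 with the removed terms counted and 0.0362 without. That call without the removed terms held in 3 of 10 fits that leave out a library. Slc25a51, the NAD+ carrier and the most abundant of the list in CPM, stood at 6.26, 6.24, 6.30, 6.20 and 6.27 against 6.26, 6.25, 6.23, 6.25 and 6.30, with groups that overlapped and a log2 difference of 0.0013 (SE 0.05, adjusted p = 0.997) that became -0.0030 with library medians centred. Among the rest, Slc25a42, the coenzyme A carrier, had 0.11 (adjusted p = 0.584). Slc25a16, Slc25a26 (S-adenosylmethionine) and Slc25a32 (folate and FAD) lay between 0.02 and 0.04. An exon of the more abundant Lrig1 overlaps Slc25a26 on the opposite strand, so their reads may not be told apart. Lrig1 stood at 6.45 log2 CPM in the controls and 6.54 in the libraries labelled knockout (log2 difference 0.09).

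Amino acid carriers numbered 7 in the table, of which 6 were tested. Slc25a22, a mitochondrial glutamate carrier, had the largest negative log2 difference of the family with all libraries in the fit. It stood at 4.52, 4.53, 4.56, 4.33 and 4.63 log2 CPM in the libraries labelled control and at 4.19, 4.24, 4.15, 4.21 and 4.29 in those labelled knockout. Every library labelled knockout was below every control, with control replicate 5 the nearest. The means were 4.51 ± 0.11 and 4.21 ± 0.05 (SD, n = 5 each), 1.23-fold lower in the libraries labelled knockout (log2 -0.30, SE 0.08, 95% interval -0.48 to -0.12). Its adjusted p was 0.219 with the removed terms counted and 0.0179 without, from 0.00229 to 0.894 over the 18 alternatives. With the removed terms not counted it passed in 8 of 10 fits that leave out a library, all but those without control replicate 1 and without knockout replicate 3. Over those 10 fits its log2 difference ran from -0.36 to -0.26. With the removed terms counted it ran from -0.37 to -0.17. At the latter, without knockout replicate 3, Slc25a10 (-0.42) and Slc25a20 (-0.31) were further below 0. In litters 108, 110 and 112 the difference was -0.31, -0.40 and -0.23.

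Slc25a12, the inner membrane step of the malate-aspartate shuttle, stood at 8.96, 9.04, 8.89, 9.04 and 9.05 log2 CPM in the libraries labelled control and at 9.01, 9.03, 9.06, 8.97 and 8.94 in those labelled knockout. The groups overlapped, and the log2 difference was 0.01 (SE 0.06, 95% interval -0.13 to 0.14, adjusted p = 0.976). Slc25a13, which serves the same exchange, was the least abundant member, with -0.83 ± 0.35 log2 CPM in the controls and -0.67 ± 0.28 in the libraries labelled knockout (SD, n = 5 each). The shuttle enzymes Got1, Got2, Mdh1 and Mdh2 gave 0 of 4 past the threshold in either fit (all genes 0.335% with the removed terms counted and 8.62% without). The closest was Mdh1 at -0.13 (limma adjusted p = 0.67). Other amino acid carriers overlapped between groups: the branched-chain amino acid carrier Slc25a44 had a log2 difference of 0.09, the glycine carrier Slc25a38 0.04, the ornithine carrier Slc25a15 0.01 and the basic amino acid carrier Slc25a29 -0.11.

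Slc25a20, the carnitine/acylcarnitine carrier, brings fatty acids into the matrix for oxidation and is the 1 member of its list. Its values were 6.24, 6.31, 6.24, 6.40 and 6.31 log2 CPM in the libraries labelled control and 6.16, 6.10, 6.16, 6.02 and 6.07 in those labelled knockout. No library labelled knockout reached a control. The means were 6.30 ± 0.07 and 6.10 ± 0.06 (SD, n = 5 each), 1.15-fold lower in the libraries labelled knockout (log2 -0.20, SE 0.06, 95% interval -0.34 to -0.06). Its adjusted p was 0.306 with the removed terms counted and 0.025 without, from 0.00365 to 0.708 over the 18 alternatives. The call with the removed terms not counted held in 5 of 10 fits that leave out a library. Without knockout replicate 3 the log2 difference was -0.23 with the removed terms not counted and -0.31 with them counted. The difference was -0.11, -0.12 and -0.31 in litters 108, 110 and 112, widest in the litter that holds control replicate 5 and knockout replicate 4.

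The genes that work with Slc25a20 did not share its direction as a list. These are Cpt1a, Cpt1b, Cpt2, Crat, Slc22a5 and Acsl1, which make, trim or take up acylcarnitines and carnitine. Of them 0 of 6 passed in either fit (all genes 0.335% with the removed terms counted and 8.62% without). Their median log2 difference was 0.02. Cpt1b, the muscle enzyme that forms acylcarnitines, had 0.04 (adjusted p = 0.832). All 6 adipocyte markers tested lay below 0 (all genes 51.4%). As lower, 4 of 6 passed with the removed terms not counted (all genes 3.48%) and 0 of 6 with them counted. They summed to 69.1 to 79.5 CPM in the libraries labelled knockout and 80.0 to 96.8 CPM in the controls. Most of that was Fabp4 (62.7 against 64.6 CPM), whose groups overlapped. Lep, Retn and Cidec averaged 0.72, 0.72 and 0.96 CPM in the libraries labelled knockout. Macrophage markers lay below 0 in 6 of 6, fibroblast in 5 of 6, Schwann cell in 3 of 3 and endothelial in 4 of 6. Muscle fibre markers did so in 1 of 8 and smooth muscle in 1 of 3. Outside the adipocyte list no marker passed in either fit. The part of any cell type in the difference of Slc25a20, or of the other carriers that were lower, was not tested. In bulk tissue fewer cells of a type and less RNA per cell cannot be told apart.

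**Figure D3:**
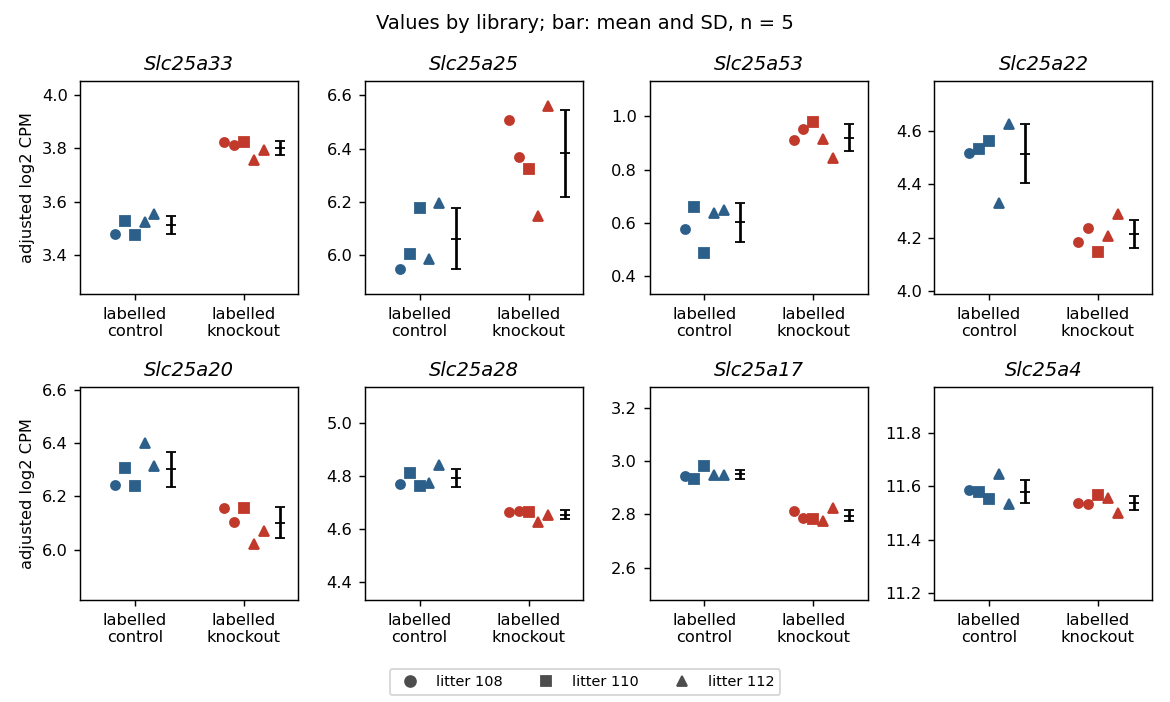
Adjusted log2 CPM of 8 carriers in each of the 10 libraries by labelled group, with symbols for the 3 litters and bars for the group mean and SD (n = 5); every panel spans the same log2 range. Slc25a33 is higher and Slc25a22 and Slc25a20 are lower in every library labelled knockout, while Slc25a25 overlaps through knockout replicate 4.

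Slc25a3 imports phosphate with a proton for ATP synthesis. It stood at 9.85, 9.79, 9.85, 9.88 and 9.74 log2 CPM in the libraries labelled control and at 9.81, 9.79, 9.81, 9.85 and 9.80 in those labelled knockout. The groups overlapped fully, with a log2 difference of -0.01 (SE 0.06, 95% interval -0.14 to 0.12, adjusted p = 0.974).

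The 2 iron carriers, the mitoferrins, differed in sign. Slc25a28 (mitoferrin 2), the form of most tissues, stood at 4.77, 4.81, 4.76, 4.77 and 4.84 log2 CPM in the libraries labelled control and at 4.66, 4.67, 4.66, 4.62 and 4.65 in those labelled knockout, where every library was lower than every control. Its log2 difference was -0.14 (SE 0.06, 95% interval -0.27 to 0.00) and its adjusted p 0.497 with the removed terms counted and 0.0253 without, and the latter call held in 4 of 10 fits that leave out a library. Slc25a37 (mitoferrin 1), best known in developing red cells, stood at 4.99, 5.02, 4.97, 4.96 and 5.04 against 5.04, 5.06, 5.05, 5.04 and 5.04. Those groups overlapped, and the log2 difference was 0.05 (SE 0.06, adjusted p = 0.824). The log2 gap between Slc25a37 and Slc25a28 was 0.19 to 0.22 in the libraries labelled control and 0.38 to 0.41 in those labelled knockout, with no overlap. That gap was chosen after the values had been seen and is given without a test.

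Of 12 genes of mitochondrial iron use and iron storage, 0 passed with the removed terms counted (all genes 0.335%). With the terms not counted 1 passed as lower in the libraries labelled knockout (all genes 3.48%) and 1 as higher (all genes 5.15%). Alas1, the first enzyme of heme synthesis outside red cells, was lower (log2 -0.16, SE 0.05, limma adjusted p = 0.33 counted and 0.0146 not counted). Ftl1, the ferritin light chain, was higher (0.15, SE 0.06, limma adjusted p = 0.378 and 0.0289). Red blood cell markers summed to 151 to 169 CPM in the libraries labelled knockout and 156 to 180 in the controls, which overlapped, and 4 of 5 lay below 0. Their part in the values of the iron genes was not tested.

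Glutathione carriers keep the antioxidant glutathione supplied to the matrix. Slc25a39, the more abundant, stood at 4.92, 4.86, 4.94, 4.98 and 4.80 log2 CPM in the libraries labelled control and at 4.91, 4.87, 4.90, 4.92 and 4.89 in those labelled knockout. Its groups overlapped, with a log2 difference of -0.0034 (SE 0.07, adjusted p = 0.993). Slc25a40 was lower in each library labelled knockout (2.24 to 2.34) than in any control (2.42 to 2.58), but passed in neither fit (log2 -0.16, SE 0.10, adjusted p = 0.656 with the removed terms counted and 0.0872 without).

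Di- and tricarboxylate carriers link the matrix to cytosolic malate, citrate and succinate. Slc25a11, the oxoglutarate carrier of the malate-aspartate shuttle, stood at 7.94, 7.97, 7.94, 8.10 and 7.95 log2 CPM in the libraries labelled control and at 8.06, 7.99, 8.05, 7.94 and 7.97 in those labelled knockout. Its groups overlapped (log2 difference 0.02, SE 0.06, adjusted p = 0.941). An exon of Rnf167 overlaps it on the opposite strand.

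The citrate carrier Slc25a1 and the dicarboxylate carrier Slc25a10 feed fatty acid synthesis in fat and liver, and both were scarce here. Slc25a1 stood at 1.26, 0.97, 1.12, 1.31 and 0.61 log2 CPM in the libraries labelled control and at 0.65, 0.68, 0.79, 1.12 and 0.62 in those labelled knockout. Slc25a10 stood at 1.78, 1.72, 1.82, 2.24 and 1.55 against 1.74, 1.53, 1.72, 1.55 and 1.54. Both overlapped and varied widely, with log2 differences of -0.28 (SE 0.21, adjusted p = 0.705) and -0.20 (SE 0.16, adjusted p = 0.733). With the removed terms counted, the sign of each turned in 1 of 10 fits that leave out a library. With them not counted it did not turn (Slc25a1 -0.43 to -0.16, Slc25a10 -0.29 to -0.07). The adipocyte markers above also lay below 0, as did most markers of some other cell types, and their part here was not tested.

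Relatives of the uncoupling proteins were all above 0 with all libraries in the fit (51.4% of all genes lay below 0), and none passed in either fit. Slc25a30, the highest of the 3 by mean log2 CPM, stood at 3.39, 3.26, 3.42, 3.50 and 3.13 in the libraries labelled control and at 3.51, 3.44, 3.50, 3.57 and 3.49 in those labelled knockout. Its groups overlapped, with a log2 difference of 0.16 (SE 0.10, adjusted p = 0.627). When 1 library was left out it ran from 0.07 to 0.32 with the removed terms counted. With them not counted it ran from 0.09 to 0.22. Slc25a14 and Slc25a27 had 0.09 and 0.05 with all libraries in the fit. With the removed terms counted, leaving out 1 library gave -0.25 to 0.24 for Slc25a14 and -0.17 to 0.19 for Slc25a27, so both signs turned. With the terms not counted the ranges were -0.03 to 0.21 and 0.0002 to 0.11. The uncoupling proteins proper, which share the carrier fold but not the symbol, included Ucp3, the muscle form, at 0.06 (adjusted p = 0.858), and the closest to the threshold was Ucp2 at 0.11 (adjusted p = 0.749).

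Members without an agreed substrate, or with another role, numbered 6. Slc25a46, an outer membrane protein of mitochondrial dynamics, was the most abundant, at 5.49, 5.51, 5.50, 5.63 and 5.49 log2 CPM in the libraries labelled control and 5.52, 5.47, 5.52, 5.43 and 5.46 in those labelled knockout, with overlapping groups and a log2 difference of -0.04 (SE 0.06, adjusted p = 0.861). Slc25a53 was near the floor, at 0.58, 0.66, 0.49, 0.64 and 0.65 against 0.91, 0.95, 0.98, 0.91 and 0.84, so the groups did not overlap. Its log2 difference of 0.32 had a wide interval, from -0.05 to 0.69, and its adjusted p was 0.561 with the removed terms counted and 0.0352 without. The latter call held in 4 of 10 fits that leave out a library, over which the log2 difference ran from 0.28 to 0.34. With the removed terms counted the log2 difference was 0.20 without knockout replicate 3.

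Slc25a34, named after its values were seen, had the fourth largest positive difference. It stood at 3.84, 3.96, 4.00, 4.18 and 4.07 log2 CPM in the libraries labelled control and 4.48, 4.28, 4.36, 4.00 and 4.36 in those labelled knockout. As with Slc25a25, 4 of the 5 libraries labelled knockout lay above all controls and knockout replicate 4 lay among them. Its log2 difference of 0.28 (SE 0.11) did not pass (adjusted p = 0.401 with the removed terms counted and 0.104 without), and it was 0.54, 0.38 and 0.05 in litters 108, 110 and 112. With the removed terms counted, leaving out control replicate 1 took it to 0.0007, and knockout replicates 1 and 3 to 0.15 and 0.16. With them not counted, leaving out a library gave 0.18 to 0.38. Of the rest, Slc25a35 had -0.08, Slc25a45 -0.20 and Slc25a47 0.06, all with overlapping groups. An exon of the more abundant Rangrf overlaps Slc25a35 on the opposite strand, so their reads may not be told apart. Rangrf stood at 4.91 log2 CPM in the controls and 4.78 in the libraries labelled knockout (log2 difference -0.13).

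Carriers reach the inner membrane through their own import machinery. With the removed terms counted 0 of its 13 genes passed (all genes 0.335%), and without them 1 did (all genes 8.62%). It was Timm9, a small chaperone of the intermembrane space (log2 0.14, SE 0.08, adjusted p = 0.601 and 0.0396). Agk, a subunit of the TIM22 complex, had -0.21 (adjusted p = 0.54 and 0.0553). Among the other inner membrane carriers, 0 of 9 passed in either fit, and Mpc2, a subunit of the mitochondrial pyruvate carrier, was closest, with each library labelled knockout below each control (log2 -0.14, SE 0.06, adjusted p = 0.45 and 0.0575).

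Differences over all genes followed transcript length. In 5 length classes of about equal size, the median log2 difference was -0.04 among the shortest transcripts and 0.05 among the longest. The carriers' medians in the same classes were 0.01, -0.05, 0.07, 0.00 and 0.01, from 10, 8, 9, 7 and 4 members, from the shortest class to the longest. Of the 6 carriers past the threshold with the removed terms not counted, Slc25a33 (0.29) and Slc25a17 (-0.15) lie in the class with an all-gene median of -0.04, Slc25a20 (-0.20) in that at -0.03, Slc25a28 (-0.14) in that at -0.01, Slc25a53 (0.32) in that at 0.01 and Slc25a22 (-0.30) in that at 0.05. The part of transcript length in the carriers' differences was not tested. Within groups the SD of a tested carrier ran from 0.01 to 0.28 log2 units and was larger among the controls for 31 of 38, while 73.1% of all genes tested had the larger SD there too.

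**Figure D4:**
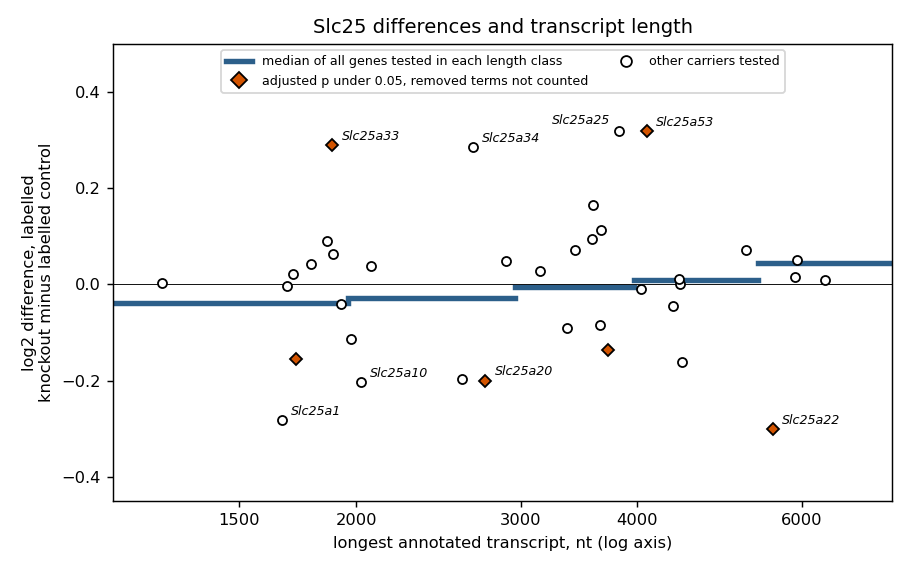
Log2 difference in CPM (labelled knockout minus labelled control) of 37 of the 38 tested carriers against the longest annotated transcript in nucleotides on a log axis, with bars for the all-gene median of each of 5 length classes. Diamonds mark the 6 carriers past the threshold with the removed terms not counted; the bars go from -0.04 to 0.05, and the carriers with the largest differences lie on both sides of them.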

How the data were processed

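PolyA RNA of 10 tibialis anterior libraries was prepared with TRIzol and a stranded oligo-dT kit, per the labels' protocols. Per the submitters' processing notes fastp, kallisto and limma were used, with no versions. Neither source gives the genome build, the annotation or the use of strand in counting. The deposited file is 1 table of log2 CPM, adjusted by the authors, for 13492 genes, of which 146 have no symbol. Counts were not used here, so depth per library and counting error are unknown. All columns of the table were used.

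With genotype fitted, litters differed by at most 6.43e-14 in any gene, and the residuals spanned 3 of 6 dimensions, so litter and 3 further terms had been removed before deposit. SDs leave out that variation, and standard errors are lower bounds. Litters 108, 110 and 112 hold 2, 1 and 2 libraries labelled knockout and 1, 2 and 2 labelled control. The fit used limma 3.58.1 in R 4.3.3 (lmFit, eBayes with trend, two-sided), with genotype, litter and the removed terms, on the 12223 genes whose mean log2 CPM reached 0, leaving out 1269, and Benjamini-Hochberg adjustment over all of them. No pseudocount was added. Steps were tested on simulated data. Lengths and positions came from GENCODE M21 (GRCm38), matched for 39 of 39 carriers.

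The members, the 11 substrate lists, 7 partner lists and 8 marker lists were chosen with earlier results of these data known. Given in every library were the 6 carriers highest per kilobase, those past the threshold in either fit, the 3 largest differences each way and the most abundant of each list. Of each partner list, genes past in either fit were named, or else the one with the smallest p. Of 47 carriers listed by substrate, 8 (Slc25a2, Slc25a18, Slc25a21, Slc25a31, Slc25a41, Slc25a43, Slc25a48 and Slc25a54) were not analysed here. Another carrier is in the counts but is not reported here by itself. Alternatives were genotype alone, the removed terms not counted, the replicate number as a block, no trend, robust moderation, other expression minimums, library medians centred, other lengths, and leaving out each library.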

Additional observations from a re-analysis of the deposited data

Results flagged for a closer look

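Each carrier's values were checked in each labelled group of 5 libraries for 1 library far from the others (gap to the nearest divided by the range above 0.71). Of 78 such groups 6 had one, and chance gives about 1 in 20. Control replicate 5 was the highest library of its group for Slc25a11, at 8.10 log2 CPM against 7.94 to 7.97 in the others. It was also the highest for Slc25a46, at 5.63 against 5.49 to 5.51, and the lowest for Slc25a26, at 4.23 against 4.27 to 4.29. Knockout replicate 4 was the lowest library of its group for Slc25a42, the coenzyme A carrier, at 5.61 against 5.68 to 5.70. It was likewise the lowest for Slc25a44, at 5.14 against 5.24 to 5.27, and for Slc25a40, at 2.24 against 2.32 to 2.34. Both libraries belong to litter 112, and the removal of litter ties the deviations of libraries within a litter to each other.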

How the results depend on the processing

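No carrier tested passed in 5 of the 8 alternatives other than leaving out a library. Nor did any in the 10 fits that leave 1 out (each gives 0, with 2 residual degrees of freedom). The carriers tested were 38, but 35 with a minimum log2 CPM of 1 and 39 with no minimum. The exceptions included genotype alone, with 10 carriers and 2608 genes of all kinds, and the removed terms not counted, with 6 and 1054. Another was the replicate block, with 1 carrier, Slc25a33 (log2 0.30, limma adjusted p = 0.0401), and 127 genes. That fit held only replicates 1, 3, 4 and 5 of each group and did not count the removed terms. With all libraries and the removed terms counted, 41 genes passed. Without the trend 1 gene passed. Leaving out a library gave 1 to 54 genes, with 1, 5 and 24 when control replicate 6, 1 or 3 was absent, and 11, 21 and 17 when knockout replicate 2, 3 or 5 was. The block was not used as a pairing. Replicate 4 is from litter 112 where knockout is labelled and from litter 110 where control is. Same-numbered libraries deviated with correlations of -0.85, 0.45, 0.03 and -0.50 (replicates 1, 3, 4 and 5). Those values cannot test a pairing, because removing litter makes deviations from the group means sum to 0 within each litter. With the removed terms not counted, 5 of 11 substrate lists had a member past, and leaving out a library, an alternative added after seeing the data, moved the 6 carriers to between 1 and 9. It was 1, Slc25a33, without control replicate 1 or knockout replicate 3, 2 without control replicate 3 or knockout replicate 2 or 5, 3 without knockout replicate 1 and 9 without knockout replicate 4. The share of Slc25a4 was 51.2% with the median coding length and 55.3% in plain CPM. Signs turned for Slc25a5, to -0.0014 with library medians centred and -0.0133 with the replicate block, and for Slc25a51, to -0.0030 with medians centred. With the removed terms counted, leaving out a library gave log2 differences from -0.48 to 0.0703 for Slc25a1 and -0.42 to 0.0065 for Slc25a10. They ran from -0.0785 to 0.0656 for Slc25a11, -0.11 to 0.0556 for Slc25a12 and -0.0461 to 0.0452 for Slc25a3. The ranges were -0.0476 to 0.0733 for Slc25a39, -0.0838 to 0.0567 for Slc25a5 and -0.0295 to 0.0631 for Slc25a51. The cause was not tested. Of the 19 carriers that the rule for values in every library names, 11 kept their sign in every setting. Depth is unknown, so what it limits for the scarce carriers cannot be given.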
